A study of Mus musculus with 12 samples.

Results

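Potassium channel subunits were followed in left ventricles of CnAb1 transgenic mice, which overexpress an alternatively spliced form of a calcineurin catalytic subunit, and of wild-type mice. Members were all mouse genes whose symbol starts with Kcn and a further letter. The gene table held 98 such symbols, of which 95 had a probe on the array, 129 probes in all. The 3 without a probe were Kcnd3os, Kcnmb3 and Kcnmb4os2. Each gene was represented by its brightest probe, and 68 of the 95 members were tested, among 25321 genes tested in all, since the scanner software marked their probe well above background on 3 or more of the 12 arrays. The remaining 27 members stayed below that limit and have no test.

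The 12 single-colour arrays fall into 4 groups of 3, all from C57/Bl6 mice. They are CnAb1 transgenic hearts after trans aortic banding (TAC), an operation that narrows the aorta and so loads the ventricle with pressure, CnAb1 transgenic hearts after sham surgery, wild-type hearts after TAC and wild-type hearts after sham surgery. Hearts were taken 21 days after either operation by the protocol and the source names, although the time entry of the sham groups is 0. The promoter that drives the transgene, and whether each array is a separate animal, are not given in the sources used here, so p-values measure the spread between arrays, which may be technical. The comparisons ask what banding changes in each genotype and what the transgene changes after each operation.

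Potassium channels set the resting potential of a heart muscle cell and carry the outward currents that end its action potential. Inward rectifiers hold the resting potential, transient outward channels give the early repolarization that dominates in the mouse, and delayed rectifiers complete it. Each channel is an assembly of pore subunits, which form the conducting path, with auxiliary subunits that change how the pore opens, closes or reaches the membrane.

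A level is the log2 processed signal minus the array's 75th percentile, so that 0 is the signal of a spot at that percentile. Levels of different genes come from different probes and are not compared with each other. Well above background is the scanner software's own mark for a spot. Of the 95 members, 24 were well above background on all 12 arrays, 58 on some of them and 13 on none. The 24 included the pore subunits Kcna4, Kcnd2, Kcnd3, Kcnq1, Kcnh2, Kcnj5, Kcnj11, Kcnj12, Kcnk3 and Kcnn2 and the auxiliary subunit Kcnip2. The 13 included Kcna2, Kcnb2, Kcng3, Kcnh1, Kcnh5, Kcnj16, Kcnj9, Kcnmb2, Kcns2, Kcnu1 and Kcnv1. A further 14 members, among them Kcne1, Kcne2 and Kcnab2, were marked on 1 or 2 arrays and were not tested.

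Transgenic sham array 2 stood apart. Net signal of its negative control spots was 48.6, while the other 11 arrays had 15.4 to 21.0, and 24 Kcn members were well above background there, against 50 to 71 elsewhere. The 27 untested members lay between -4.24 and -2.74 on that array, with a median of -4.09, and 27 of 27 were higher there than on both other transgenic sham arrays. The 75th percentile itself was 9.48 to 9.86 on the transgenic arrays, 9.88 to 9.95 on the wild-type TAC arrays and 8.97 to 9.24 on the wild-type sham arrays (log2 signal). Markers of other cell types also moved with banding in wild-type hearts. Of 8 cardiomyocyte markers 7 were lower after TAC, and their summed log2 level was 10.92 to 11.22 in transgenic TAC, 11.08 to 11.25 in transgenic sham, 10.69 to 10.95 in wild-type TAC and 11.53 to 11.63 in wild-type sham hearts. Of 7 fibroblast markers 6 were higher, with summed levels of 7.07 to 7.37, 7.12 to 7.31, 8.10 to 8.60 and 6.43 to 7.10 in the groups in that order. Among the other lists, 4 of 8 smooth muscle and pericyte markers were higher and 1 lower, 3 of 7 endothelial markers higher and 1 lower, 2 of 5 macrophage markers higher, and 1 of 6 atrial markers higher and 1 lower, while 1 of 6 nerve markers was lower and 0 of 4 tested skeletal muscle markers passed. The lower smooth muscle and pericyte marker was Abcc9, which is also counted among the partner genes below. Of all genes tested, 8.7% were higher and 12.5% lower. The part of the marker changes in the results was not tested. In tissue RNA, fewer cells of a type and less RNA per cell cannot be told apart.

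Banding in wild-type hearts was accompanied by lower signals of many potassium channel genes in tissue RNA. Of the 68 tested members, 20 passed the test between wild-type TAC and wild-type sham hearts, which is 29.4% of them, while 21.2% of all genes tested passed. Of the 20, 17 were lower after TAC, 25.0% of the members against 12.5% of all genes, and 3 were higher, 4.41% against 8.7%. The median log2 difference was -0.30 over the tested members and -0.13 over all genes. The 27 members too dim for a test had a median of -0.33. The lower members included Kcnd2, Kcnip2 and Kcna4 of the transient outward current, Kcnj2 of the inward rectifier, Kcnj3 and Kcnj5 of the acetylcholine-gated channel, Kcnj11 of the ATP-sensitive channel, Kcnk3 of the two-pore family and Kcnh2 of the rapid delayed rectifier. The higher members were Kcne4, Kcnk6 and Kcnt2. By an unadjusted p under 0.05 the share of members was 24 of 68 (35.3%), against 33.9% of all genes. The arrays of the groups did not overlap for 31 members (45.6%), against 47% of all genes, with 25 lower (36.8%) against 29.4% and 6 higher (8.82%) against 17.6%. The call was a Benjamini-Hochberg adjusted p under 0.05 from limma over all genes. With slide entered as a fixed block the count fell to 2, Kcnj2 and Kcnj3, all 20 keeping their direction, while 2.07% of all genes passed. With normexp background correction in place of the processed signal the count fell to 7, while 5.91% of all genes passed. Under normexp the median of the members was 0.25 and that of all genes also 0.25, so the lower median of the members depends on that choice, while all 17 genes named as lower kept their direction. No member passed under both the slide block and normexp.

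**Figure D1:**
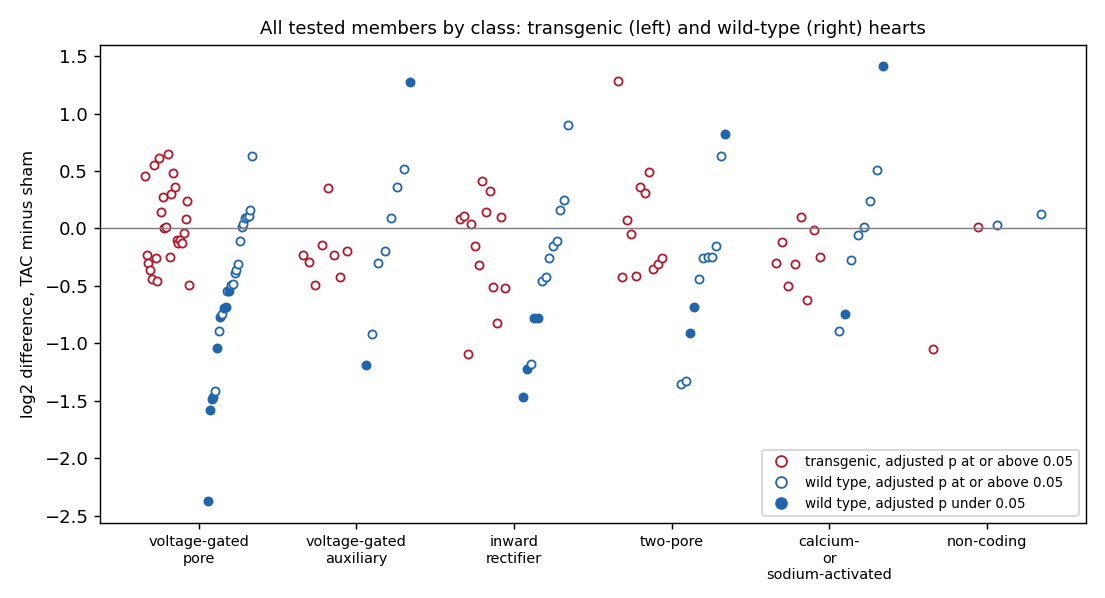
Log2 differences between TAC and sham (vertical axis) for the 68 tested members, grouped by class along the horizontal axis, with transgenic hearts at the left and wild-type hearts at the right of each class. Filled points passed the test at an adjusted p under 0.05, which 20 did in wild-type hearts and 0 in transgenic hearts.

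By class, 9 of 26 tested voltage-gated pore subunits were lower and 0 higher in wild-type TAC hearts, with a median log2 difference of -0.52. Of 13 inward rectifiers 4 were lower and 0 higher (median -0.42), and of 11 two-pore channels 2 were lower and 1 higher (median -0.26). The 0 depends on the probe of Kcnj14, an inward rectifier with 2 probes of mean levels -4.04 and -4.22. The brighter probe, which was used, gave -0.26 ± 0.14 (adjusted p = 0.229 by limma over probes). The other gave 1.72 ± 0.51 (adjusted p = 0.0384), so the direction of Kcnj14 was not settled. The 8 voltage-gated auxiliary subunits and the 8 calcium- or sodium-activated subunits each had 1 lower and 1 higher member, with medians of -0.06 and -0.02. The shares that passed were 34.6%, 30.8%, 27.3%, 25% and 25% of these classes in that order, against 21.2% of all genes. Of all genes, 12.5% were lower and 8.7% higher, with a median of -0.13. In the plot of differences by class, the lowest member that passed was a voltage-gated pore by this grouping, Kcnv2 at -2.37. It is 1 gene of the class with the most tested members, and measured -0.79 with normexp (adjusted p = 0.190), so it does not describe the class of voltage-gated pores. That class was set by symbol prefix and includes the lower members Kcnv2 and Kcng2, silent subunits that form no channel alone. The 2 non-coding members, Kcnq1ot1 and Kcnmb4os1, had no call.

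The transient outward current was represented by 4 genes, and 3 of them were lower after TAC in wild-type hearts. Kcnd2 encodes a pore subunit of the fast component. Its level was -0.07, -0.77 and -0.41 in transgenic TAC hearts, 0.35, 0.21 and -0.91 in transgenic sham hearts, -0.46, 0.17 and -0.58 in wild-type TAC hearts and 0.94, 1.34 and 1.28 in wild-type sham hearts. The wild-type sham arrays therefore stood above all 9 others. The log2 difference between wild-type TAC and sham was -1.48 ± 0.34 (SE), 2.79-fold lower, with an adjusted p of 0.0144. Within the slide that carried wild-type TAC array 2 beside wild-type sham arrays 1 and 2, it was -0.97. Without wild-type TAC array 3 the difference was -1.33 with an adjusted p of 0.0604.

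Kcnip2 encodes the calcium-binding auxiliary subunit that carries the fast transient outward pore to the membrane. Its level was -0.12, -0.67 and -0.72 in transgenic TAC, 0.03, 0.01 and -0.85 in transgenic sham, -0.58, -0.70 and -0.37 in wild-type TAC and 0.54, 0.55 and 0.84 in wild-type sham hearts. As for its pore partner, the wild-type sham arrays were the 3 highest of the 12. The log2 difference in wild-type hearts was -1.19 ± 0.25 (2.28-fold lower, adjusted p = 0.0101, -1.24 within the slide). Kcna4, the pore of the slow transient outward component, had 1.06, 1.25 and 0.79 in transgenic TAC, 0.97, 0.69 and 0.63 in transgenic sham, 0.40, 0.39 and 0.48 in wild-type TAC and 0.93, 1.13 and 1.24 in wild-type sham hearts. Here the wild-type TAC arrays were the 3 lowest of the 12. Its difference in wild-type hearts was -0.68 ± 0.15 (1.60-fold lower, adjusted p = 0.0113, -0.64 within the slide). Kcnd3, the other fast transient outward pore gene, averaged 0.77 ± 0.11 in transgenic TAC, 0.87 ± 0.10 in transgenic sham, 0.48 ± 0.24 in wild-type TAC and 0.44 ± 0.19 in wild-type sham hearts (SD, n = 3 each). The wild-type difference of 0.04 had a 95% interval of -0.30 to 0.37, and the wild-type groups overlapped. The Kcnd2 and Kcnd3 values were thus far apart in the same hearts, although no test of that gap was made.

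**Figure D2:**
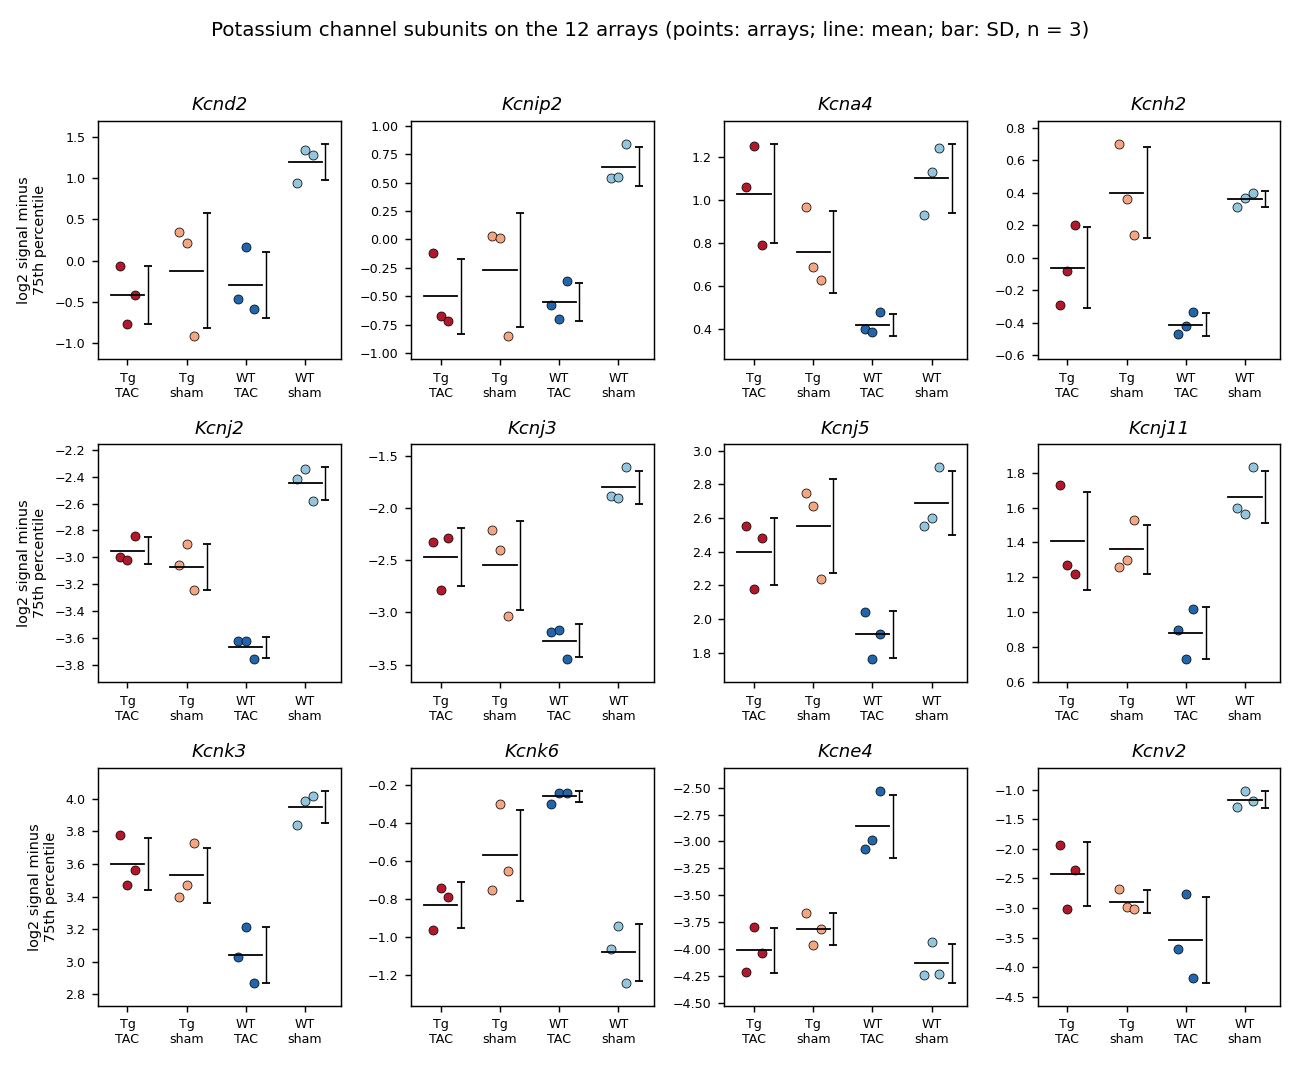
Levels of 12 members (vertical axes, log2 signal minus each array's 75th percentile; the axes differ between panels and do not start at 0) in transgenic (Tg) and wild-type (WT) hearts after TAC or sham surgery. Points are arrays, horizontal lines group means and bars the SD of 3 arrays. The wild-type TAC arrays are the 3 lowest for Kcna4, Kcnj2, Kcnj3, Kcnj5 and Kcnj11, while for Kcnd2 and Kcnip2 the 3 wild-type sham arrays lie above the other groups.

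The letters upstream of 4 of these genes are shown because their signals moved with banding in wild-type hearts. Each run is the 250 bases before the start of the gene from the RefSeq promoter table (GRCm38.p6), read 5′ to 3′ along the gene's own strand. Kcna4 lies at chr2:107290339-107290588 (plus strand) and Kcnip2 at chr19:45816064-45816313 (minus strand). In both, the capitals mark TGGAAA, the core letters bound by NFAT factors, which calcineurin activates, here on the opposite strand and so read as TTTCCA. It lies 136 to 131 bases before the start in Kcna4 and 138 to 133 bases before it in Kcnip2.
Kcna4: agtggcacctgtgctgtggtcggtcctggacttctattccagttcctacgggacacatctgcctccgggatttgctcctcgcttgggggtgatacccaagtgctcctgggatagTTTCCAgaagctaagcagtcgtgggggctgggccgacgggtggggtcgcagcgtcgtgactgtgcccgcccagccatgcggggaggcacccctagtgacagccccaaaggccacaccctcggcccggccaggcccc
Kcnip2: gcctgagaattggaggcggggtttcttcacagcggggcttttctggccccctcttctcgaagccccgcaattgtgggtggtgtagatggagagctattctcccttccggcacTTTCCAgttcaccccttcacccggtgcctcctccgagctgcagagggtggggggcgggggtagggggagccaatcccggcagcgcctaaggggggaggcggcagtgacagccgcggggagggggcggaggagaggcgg
Of the 20 members that passed in wild-type hearts, 13 had an entry in the promoter table. TGGAAA on either strand was present in 3 of the 13, in Kcna4, Kcna7 and Kcnip2, and in 18.6% of 32851 promoters. Among the 52 tested members with an entry it was present in 12. A match is a description of the letters and does not show a binding site.

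Among the delayed rectifiers, pore genes differed from each other. Kcnh2 encodes the pore of the rapid component. Its level was -0.29, -0.08 and 0.20 in transgenic TAC, 0.70, 0.36 and 0.14 in transgenic sham, -0.47, -0.42 and -0.33 in wild-type TAC and 0.31, 0.37 and 0.40 in wild-type sham hearts. The wild-type groups did not overlap, and the difference was -0.77 ± 0.16 (1.70-fold lower, adjusted p = 0.0101, -0.76 within the slide). Kcnq1, the pore of the slow component, had 2.09, 1.67 and 1.89 in transgenic TAC, 2.13, 1.90 and 2.02 in transgenic sham, 2.13, 2.12 and 2.19 in wild-type TAC and 2.18, 2.02 and 2.21 in wild-type sham hearts. Its wild-type difference was 0.01, with a 95% interval of -0.27 to 0.29. Kcna5, the pore of the ultrarapid current, averaged -1.26 ± 0.36 in transgenic TAC, -0.78 ± 0.37 in transgenic sham, -0.64 ± 0.14 in wild-type TAC and -1.27 ± 0.27 in wild-type sham hearts (SD, n = 3 each). It measured 0.63 ± 0.24 higher in wild-type TAC hearts with an adjusted p of 0.0889, but a second Kcna5 probe gave -0.03 ± 0.20, so its direction was not settled.

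Auxiliary subunits of the delayed rectifiers are small single-span proteins. Kcne4, which can inhibit the Kcnq1 pore, was higher after TAC in wild-type hearts. Its level was -4.21, -3.79 and -4.03 in transgenic TAC, -3.66, -3.96 and -3.81 in transgenic sham, -3.07, -2.99 and -2.53 in wild-type TAC and -4.24, -3.93 and -4.23 in wild-type sham hearts. The 3 wild-type TAC arrays stood above all 9 others. The difference was 1.27 ± 0.18 (2.41-fold higher, adjusted p = 0.00217, 1.09 within the slide), and a dimmer probe of the same gene gave 1.18 ± 0.76. With normexp the difference was 0.97 ± 0.40 (adjusted p = 0.195). Kcne4 was well above background on 2 of the 3 wild-type sham arrays. Kcne3, an accessory subunit of several voltage-gated pores, averaged -2.63 ± 0.49, -2.98 ± 0.94, -2.40 ± 0.19 and -2.49 ± 0.10 in transgenic TAC, transgenic sham, wild-type TAC and wild-type sham hearts. It had a wild-type difference of 0.09 with an interval of -0.82 to 1.00. Kcne1l, also named Kcne5, averaged -1.26 ± 0.40, -0.97 ± 0.62, -1.51 ± 0.41 and -0.59 ± 0.15 in the groups in that order. Its wild-type difference was -0.92 ± 0.33 (adjusted p = 0.0724), while its dimmer probe gave 0.67 ± 0.45. Kcne1 and Kcne2 were not tested.

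The inward rectifier Kcnj2 forms the main pore of the current that holds the resting potential of ventricular cells, and it had the smallest adjusted p of all members. Its level was -3.00, -3.02 and -2.84 in transgenic TAC, -3.06, -2.90 and -3.24 in transgenic sham, -3.62, -3.62 and -3.76 in wild-type TAC and -2.42, -2.34 and -2.58 in wild-type sham hearts. The wild-type sham arrays were the 3 highest, the wild-type TAC arrays the 3 lowest, and all 6 transgenic arrays lay between them. The wild-type difference was -1.22 ± 0.12 (2.33-fold lower, adjusted p = 0.000707, -1.25 within the slide), and it passed without each array in turn. With normexp background correction, however, it was -0.18 ± 0.37 with an adjusted p of 0.737. The companion inward rectifier Kcnj12 averaged 0.73 ± 0.43 in transgenic TAC, 0.33 ± 0.40 in transgenic sham, 0.02 ± 0.16 in wild-type TAC and 0.44 ± 0.08 in wild-type sham hearts. The wild-type groups did not overlap, but the difference of -0.42 ± 0.24 had an adjusted p of 0.262.

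The promoter letters of Kcnj2 (chr11:111065914-111066163, plus strand) and of Kcne4 (chr1:78816661-78816910, plus strand) are shown as those of a member that was lower and of a member that was higher after banding. The capitals mark CACGTG, an E-box read the same on both strands, 84 to 79 bases before the start in Kcnj2 and 54 to 49 bases before it in Kcne4.
Kcnj2: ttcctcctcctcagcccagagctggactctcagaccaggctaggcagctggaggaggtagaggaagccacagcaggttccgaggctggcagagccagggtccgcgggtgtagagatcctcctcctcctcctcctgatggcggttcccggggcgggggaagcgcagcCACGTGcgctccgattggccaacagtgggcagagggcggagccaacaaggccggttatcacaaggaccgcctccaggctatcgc
Kcne4: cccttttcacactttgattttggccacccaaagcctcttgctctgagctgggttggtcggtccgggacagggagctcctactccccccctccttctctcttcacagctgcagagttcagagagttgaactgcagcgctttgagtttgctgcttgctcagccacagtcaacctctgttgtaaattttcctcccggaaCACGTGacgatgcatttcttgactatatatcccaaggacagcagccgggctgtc
CACGTG was present in 3 of the 13 members with a promoter entry, Kcne4, Kcnh4 and Kcnj2, and in 6.02% of 32851 promoters. Among the 52 tested members with an entry it was present in 5. Other letters searched on both strands were CCACCC in 10 of the 13 (28.1% of all promoters). A loose form of the core motif of MEF2 factors was present in 1, which was Kcnk4 (3.20%). That form allowed any letter at its middle positions, so a match need not be the MEF2 motif itself. AGATAA (9.99%), TATAAA (12.4%), TGANTCA (6.75%) and the CArG box (1.47%) were present in 0. CCACCC was also present in 33 of the 52 tested members with an entry. The motifs were searched for in full and can overlap, and a window without a match says only that these letters are not in it.

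Both subunits of the acetylcholine-gated channel, which slows the heart under vagal drive, were lower in wild-type TAC hearts. Kcnj3 had -2.33, -2.79 and -2.29 in transgenic TAC, -2.21, -2.40 and -3.03 in transgenic sham, -3.19, -3.17 and -3.45 in wild-type TAC and -1.88, -1.90 and -1.61 in wild-type sham hearts. As for Kcnj2, the transgenic arrays lay between the wild-type groups. The difference was -1.47 ± 0.22 (2.78-fold lower, adjusted p = 0.00282, -1.28 within the slide), and a second probe gave -1.45 ± 0.28. With normexp it was -0.38 ± 0.35 (adjusted p = 0.549). Kcnj5 had 2.55, 2.18 and 2.48 in transgenic TAC, 2.75, 2.67 and 2.24 in transgenic sham, 2.04, 1.76 and 1.91 in wild-type TAC and 2.55, 2.60 and 2.90 in wild-type sham hearts. Its wild-type TAC arrays were the 3 lowest of the 12, with a difference of -0.78 ± 0.17 (1.72-fold lower, adjusted p = 0.0116, -0.82 within the slide).

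The ATP-sensitive channel opens when the energy state of the cell falls. Its ventricular pore Kcnj11 had 1.73, 1.27 and 1.22 in transgenic TAC, 1.26, 1.30 and 1.53 in transgenic sham, 0.90, 0.73 and 1.02 in wild-type TAC and 1.60, 1.56 and 1.83 in wild-type sham hearts. The wild-type TAC arrays were again the 3 lowest. The difference was -0.78 ± 0.16 (1.72-fold lower, adjusted p = 0.00879, -0.85 within the slide), and a second probe gave -0.80 ± 0.17. Kcnj8, the vascular pore of the same channel type, averaged -0.22 ± 0.26, -0.33 ± 0.41, -0.28 ± 0.49 and -0.53 ± 0.21 in transgenic TAC, transgenic sham, wild-type TAC and wild-type sham hearts, with a wild-type interval of -0.38 to 0.87. The regulatory subunits of this channel are described with the partner genes.

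Two-pore channels carry background currents that are open at rest. Kcnk3, an acid-sensitive channel of this family, had 3.78, 3.47 and 3.56 in transgenic TAC, 3.40, 3.47 and 3.73 in transgenic sham, 3.03, 3.21 and 2.87 in wild-type TAC and 3.84, 3.99 and 4.02 in wild-type sham hearts. The transgenic arrays again lay between the wild-type groups, whose difference was -0.91 ± 0.14 (1.88-fold lower, adjusted p = 0.00284, -0.71 within the slide). Kcnk6 went the other way: -0.96, -0.74 and -0.79 in transgenic TAC, -0.75, -0.30 and -0.65 in transgenic sham, -0.30, -0.24 and -0.24 in wild-type TAC and -1.06, -0.94 and -1.24 in wild-type sham hearts. Its wild-type difference was 0.82 ± 0.14 (1.76-fold higher, adjusted p = 0.00420, 0.75 within the slide). Kcnk4, a stretch-activated member, was 0.14, -0.04 and 0.04 in transgenic TAC, 0.32, 0.16 and -0.19 in transgenic sham, -0.36, -0.55 and -0.41 in wild-type TAC and 0.33, 0.17 and 0.22 in wild-type sham hearts, a difference of -0.68 ± 0.14 (adjusted p = 0.00818, -0.80 within the slide), while its dimmer probe gave -0.09 ± 0.40. Kcnk9, a relative of Kcnk3, measured -1.33 ± 0.43 and just missed the threshold with an adjusted p of 0.0533. Kcnk1 and Kcnk2 varied widely between arrays. Kcnk1 averaged -3.36 ± 1.06, -4.64 ± 0.79, -4.77 ± 2.45 and -3.42 ± 1.21 in transgenic TAC, transgenic sham, wild-type TAC and wild-type sham hearts, with a wild-type interval of -3.86 to 1.15. Kcnk2 averaged -5.85 ± 0.47, -5.55 ± 1.47, -6.01 ± 0.41 and -6.64 ± 0.24, with a wild-type interval of -0.72 to 1.97.

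Calcium-activated channels couple the membrane potential to cytosolic calcium. Kcnn2, a small-conductance pore, had 0.16, -0.20 and 0.16 in transgenic TAC, 0.37, 0.47 and -0.35 in transgenic sham, -0.25, -0.04 and -0.52 in wild-type TAC and 0.51, 0.38 and 0.51 in wild-type sham hearts. Its difference in wild-type hearts was -0.74 ± 0.22 (1.67-fold lower, adjusted p = 0.0399, -0.48 within the slide). The call was lost without each of 7 arrays in turn, all 3 wild-type sham arrays, wild-type TAC arrays 1 and 3 and transgenic TAC arrays 1 and 3, with adjusted p of 0.0532 to 0.143. Kcnn3, Kcnn4, Kcnma1 and its auxiliary subunit Kcnmb1, which smooth muscle uses, had wild-type differences of 0.01, 0.24, -0.27 and 0.51 with adjusted p of 0.992, 0.860, 0.819 and 0.229. Their group means ranged from -3.99 to -3.30 for Kcnn3, from -5.62 to -4.56 for Kcnn4, from -5.49 to -4.75 for Kcnma1 and from -4.90 to -4.38 for Kcnmb1. Kcnt2, a sodium-activated pore, was higher, with -3.70, -3.09 and -3.76 in wild-type TAC and -4.36, -5.28 and -5.13 in wild-type sham hearts, a difference of 1.41 ± 0.26 (2.65-fold, adjusted p = 0.00599, 1.73 within the slide), and 0.99 ± 0.44 with normexp (adjusted p = 0.236). Kcnt2 was well above background on 2 of the 3 wild-type sham arrays, and its level on array 2, which also enters the value within the slide, lay below the lowest marked level there, so its fold is uncertain. Without that array the difference was 1.23 ± 0.28 (adjusted p = 0.0231). The transgenic arrays ranged from -4.74 to -4.24 after TAC and from -4.32 to -4.16 after sham surgery.

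Silent subunits form no channel alone and change the properties of the voltage-gated pores they join. Kcnv2 had the largest difference among the members that passed in wild-type hearts. Its level was -1.94, -3.01 and -2.35 in transgenic TAC, -2.68, -2.99 and -3.01 in transgenic sham, -3.69, -2.76 and -4.18 in wild-type TAC and -1.29, -1.02 and -1.20 in wild-type sham hearts. The wild-type sham arrays were the 3 highest, and the difference was -2.37 ± 0.35 (5.18-fold lower, adjusted p = 0.00280, -1.61 within the slide). With normexp it was -0.79 ± 0.33 (adjusted p = 0.190). Kcng2, another silent subunit, had 1.60, 1.37 and 1.71 in transgenic TAC, 1.74, 1.50 and 1.41 in transgenic sham, 1.51, 1.61 and 1.74 in wild-type TAC and 2.05, 2.17 and 2.25 in wild-type sham hearts. Here too the wild-type sham arrays stood above the other 9, with a difference of -0.54 ± 0.13 (adjusted p = 0.0189, -0.50 within the slide) and -0.46 ± 0.10 by a second probe. The call was lost without wild-type sham array 2 or 3 or wild-type TAC array 1 (adjusted p = 0.0554 to 0.0698). Kcnab1, a cytosolic beta subunit of voltage-gated pores, averaged -3.97 ± 0.22, -3.56 ± 0.68, -3.61 ± 0.33 and -4.13 ± 0.01 in transgenic TAC, transgenic sham, wild-type TAC and wild-type sham hearts. Its wild-type difference was 0.52 ± 0.30 with an adjusted p of 0.265.

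Other voltage-gated pores that were lower in wild-type TAC hearts belonged to the Shaker family and to Kcnh4. Kcna1 and Kcna6 are adjacent entries on chromosome 6 in the gene table, and their wild-type differences were -1.58 ± 0.23 (2.99-fold lower, adjusted p = 0.00250, -1.16 within the slide) and -1.47 ± 0.38 (2.77-fold lower, adjusted p = 0.0228, -1.27 within the slide). Kcna1 had -3.25, -3.45 and -3.23 in transgenic TAC, -2.98, -2.88 and -3.37 in transgenic sham, -3.91, -3.62 and -4.60 in wild-type TAC and -2.51, -2.43 and -2.46 in wild-type sham hearts, so that the transgenic arrays lay between the wild-type groups. With normexp the wild-type differences of Kcna1 and Kcna6 were -0.21 and -0.36, and neither passed. Kcna6 had -2.96, -2.76 and -2.95 in transgenic TAC, -1.80, -2.39 and -3.41 in transgenic sham, -3.29, -3.34 and -4.15 in wild-type TAC and -2.39, -1.76 and -2.21 in wild-type sham hearts, with transgenic sham array 3 below the wild-type sham arrays and array 1 among them. The Kcna6 call was lost without wild-type sham array 2 or 3 or wild-type TAC array 3 (adjusted p = 0.0582 to 0.0901), and its dimmer probe gave -0.21 ± 0.47. Kcna7, known from skeletal and heart muscle, had 2.12, 1.82 and 1.60 in transgenic TAC, 1.74, 1.50 and 0.65 in transgenic sham, 1.20, 1.24 and 0.97 in wild-type TAC and 2.06, 1.88 and 2.60 in wild-type sham hearts, a wild-type difference of -1.04 ± 0.29 (2.06-fold lower, adjusted p = 0.0289, -0.73 within the slide). Its call was lost without wild-type sham array 1 or 3 or any wild-type TAC array (adjusted p = 0.0549 to 0.103). A second Kcna7 probe, also well above background on all 12 arrays, gave -1.23 ± 0.40 (adjusted p = 0.0545). Kcnh4, of the same family as Kcnh2, had 0.53, 0.31 and 0.47 in transgenic TAC, 0.71, 0.10 and 0.07 in transgenic sham, 0.15, -0.21 and -0.14 in wild-type TAC and 0.66, 0.49 and 0.71 in wild-type sham hearts. Its wild-type difference was -0.69 ± 0.18 (adjusted p = 0.0242, -0.79 within the slide), and its call was lost without wild-type sham array 1 or 3 or wild-type TAC array 2 or 3 (adjusted p = 0.0725 to 0.0828).

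Banding in transgenic hearts gave no call. Of the 68 tested members 0 passed between transgenic TAC and transgenic sham hearts, as did 0% of all genes by limma, and 2 members (2.94%), Kcnh2 and Kcnip3, had an unadjusted p under 0.05, against 6.22% of all genes. That count was 11 without transgenic sham array 3 and 8 without transgenic sham array 1. Kcnip3 measured -0.49 ± 0.19 by the probe used, while its dimmer probe gave 0.04 ± 0.23. The arrays of the groups did not overlap for 0 of the 68, against 8.5% of all genes (4.56% higher and 3.94% lower). No other setting that was tried made a call. The median log2 difference was -0.13 over the tested members and -0.01 over all genes. Its sign was not stable, at 0.02 without transgenic sham array 2, -0.06 without array 1, -0.28 without array 3, -0.05 without transgenic TAC array 2, 0.15 with quantile normalization and 0.26 with normexp. Differences ranged from -1.09 for Kcnj1, marked above background on 0 transgenic TAC arrays and 1 transgenic sham array, to 1.28 for Kcnk1, and the smallest adjusted p was 0.797.

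The 17 members that were lower in wild-type TAC hearts had transgenic TAC differences between -0.46 and 0.55, with 9 above 0 and 8 below, and for 0 of them did the transgenic groups stand apart. The highest, 0.55 ± 0.29, was that of Kcna7, whose second probe gave -0.59 ± 0.40, so its direction was not settled. Kcnj2 measured 0.11 with a 95% interval of -0.15 to 0.38. Kcnh2 was the member of the 17 with the lowest value, -0.46 ± 0.16, with an interval of -0.82 to -0.10 and an adjusted p of 0.797. Kcnd2 and Kcnip2 measured -0.30 and -0.23, with intervals of -1.06 to 0.46 and -0.79 to 0.33 that leave room for a change in either direction. The 3 members that were higher in wild-type TAC hearts measured -0.20 for Kcne4, -0.26 for Kcnk6 and -0.25 for Kcnt2. Of these 20 members, 13 were well above background on all 3 transgenic sham arrays, and 7, Kcna1, Kcna6, Kcne4, Kcnj2, Kcnj3, Kcnt2 and Kcnv2, on 2 of them, array 2 being the exception.

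**Figure D3:**
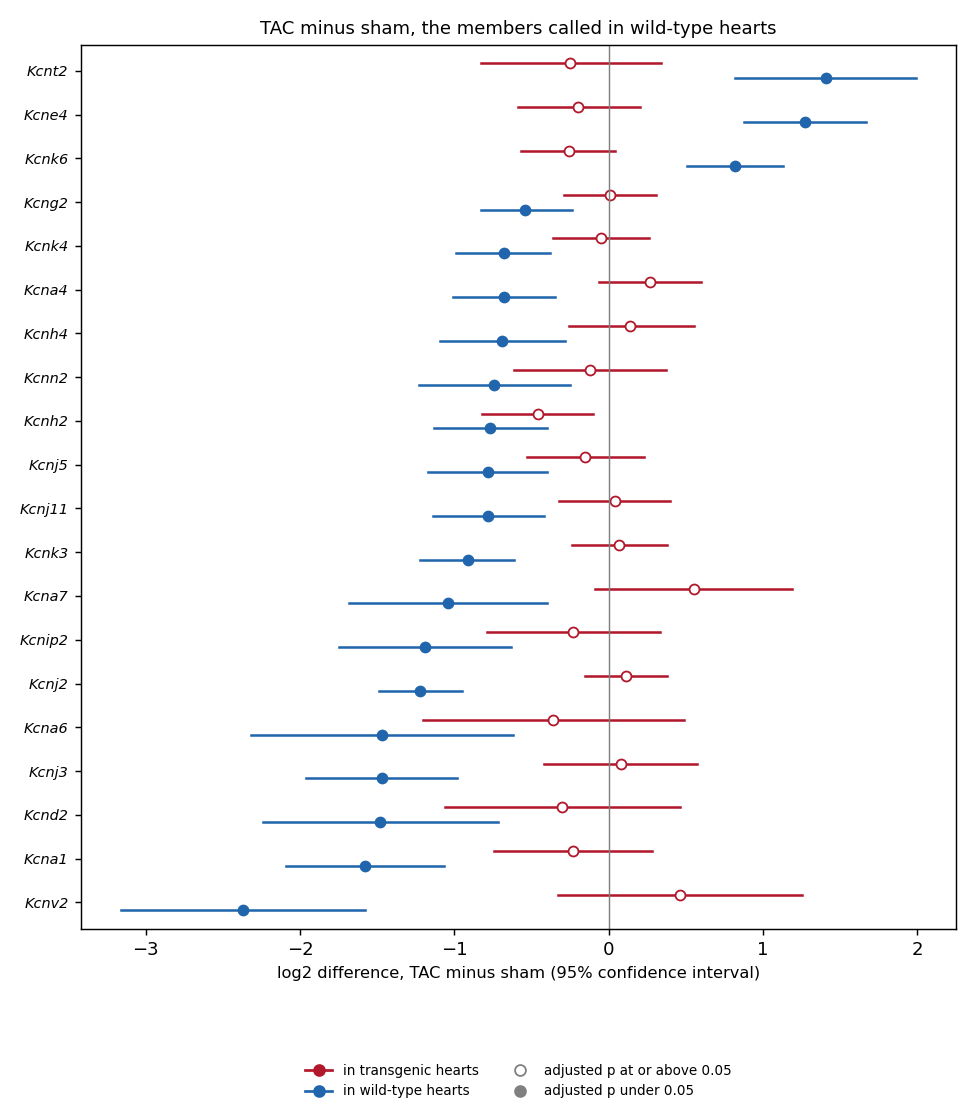
Log2 differences between TAC and sham (horizontal axis, with 95% confidence intervals from limma) for the 20 members that passed in wild-type hearts, with transgenic hearts above wild-type hearts in each row. Filled points have an adjusted p under 0.05. The transgenic points lie between -0.46 and 0.55, and the members shown were chosen by the wild-type test.

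The difference between the TAC responses of the genotypes was tested as an interaction, the transgenic response minus the wild-type response. It passed for 10 of the 68 tested members, 14.7% of them, against 7.08% of all genes, while 19 (27.9%) had an unadjusted p under 0.05, against 25.5%. Of the 10, 7 had a positive value, the genes Kcnj2, Kcnj3, Kcnk3, Kcna1, Kcna4, Kcna7 and Kcnv2, and 3 a negative value, the genes Kcne4, Kcnk6 and Kcnt2, against 4.18% and 2.9% of all genes. The median was 0.35 over the tested members and 0.10 over all genes. It was 0.02 with normexp, 0.68 with quantile normalization and 0.20 without transgenic sham array 3, where the median of all genes was -0.06, 0.13 and 0.07 in that order. The interaction shares its wild-type arrays with the wild-type comparison, so the values of the comparisons are side by side and not independent. Cell type markers passed the interaction too, 4 of 8 cardiomyocyte markers (50%), all positive, and 5 of 7 fibroblast markers (71.4%), all negative. So did 3 of 8 smooth muscle and pericyte and 1 of 7 endothelial markers, all negative, and 2 of 6 atrial markers, 1 in each direction. Of the macrophage, nerve and skeletal muscle markers 0 passed. The part of these marker changes in the Kcn values was not tested.

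For Kcnj2 the interaction was 1.33 ± 0.17 (adjusted p = 0.0125), from a TAC response of 0.11 in transgenic and -1.22 in wild-type hearts. It passed without each array in turn, with adjusted p up to 0.0496. Kcne4 measured -1.47 ± 0.25 (adjusted p = 0.0187), from -0.20 in transgenic and 1.27 in wild-type hearts, and Kcnv2 2.83 ± 0.50 (adjusted p = 0.0193), from 0.46 and -2.37. These 2 kept their call without 9 of the 12 arrays, and lost it without transgenic TAC array 1 or wild-type sham array 1 or 3, with adjusted p up to 0.0593. Kcnk6 measured -1.08 ± 0.20 (adjusted p = 0.0203) and lost its call without the same 3 arrays, with adjusted p up to 0.0605. The other 6 were closer to the threshold, at adjusted p of 0.0246 for Kcnk3 to 0.0461 for Kcna7, and each lost its call without 6 or more of the 12 arrays. For Kcnd2 and Kcnip2 the interaction did not pass, at 1.18 ± 0.48 (adjusted p = 0.159) and 0.96 ± 0.36 (adjusted p = 0.127). With slide as a fixed block 0 members passed, while the values of the 10 kept their direction and Kcnj2 measured 1.41. With normexp 0 members passed as well, and the interaction of Kcnj2 was 0.45 ± 0.53, that of Kcne4 -0.68 ± 0.57 and that of Kcnv2 1.22 ± 0.46, while Kcnk3, Kcnk6, Kcna4 and Kcna7 measured 1.23, -0.96, 0.82 and 1.60. The second probe of Kcna7 gave an interaction of 0.64 ± 0.57 (adjusted p = 0.524), so the Kcna7 call rests on 1 of its 2 probes, while that of Kcnj3 gave 1.78 ± 0.40 (adjusted p = 0.0329). The whole count was 1 without transgenic TAC array 1 or wild-type sham array 3, 2 without wild-type sham array 1, 4 without wild-type sham array 2 or wild-type TAC array 1 or 3, and 6 without transgenic sham array 2 or transgenic TAC array 3. Of all genes, 1.11%, 0.557%, 0.719%, 2.3%, 2.32%, 1.91%, 3.44% and 3.31% passed without these arrays, in that order.

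The transgene was compared with wild type after each operation. After TAC, 2 of the 68 tested members passed, 2.94%, against 4% of all genes, a share below the background (2.14% higher and 1.86% lower). The arrays did not overlap for 18 members higher in transgenic hearts (26.5%) and 9 lower (13.2%), against 19.4% and 13.7% of all genes, 33.1% in either direction, and 21 (30.9%) had an unadjusted p under 0.05, against 22.5%. Kcnj2 was higher in transgenic TAC hearts, at -3.00, -3.02 and -2.84, against -3.62, -3.62 and -3.76 in wild-type TAC hearts, a difference of 0.71 ± 0.12 (1.64-fold, adjusted p = 0.0178). Kcne4 was lower in transgenic TAC hearts, at -4.21, -3.79 and -4.03, against -3.07, -2.99 and -2.53 in wild-type TAC hearts, a difference of -1.15 ± 0.18 (2.21-fold, adjusted p = 0.0128). The groups did not overlap for either gene, and on the slide that held 1 transgenic and 2 wild-type TAC arrays the differences were 0.85 and -1.23. With slide as a fixed block their adjusted p were 0.146 and 0.239, and with normexp the differences were 0.07 ± 0.37 and -0.66 ± 0.40, neither passing. The Kcne4 call was lost without transgenic TAC array 1 (adjusted p = 0.0564), and the Kcnj2 call without transgenic TAC array 1 or 3 or wild-type TAC array 1 or 3 (adjusted p = 0.0511 to 0.0742). The count itself ranged from 0 without transgenic TAC array 1 to 8 without transgenic sham array 3, and was 1 without wild-type TAC array 1 or 3 and 4 without wild-type TAC array 2 or transgenic sham array 1. Of all genes, 0.703%, 5.24%, 1.02%, 0.774%, 3.09% and 4.01% passed without these arrays, in that order. Several members were close to the threshold, among them Kcna4 (0.61 ± 0.15, adjusted p = 0.0509), Kcnk3 (0.57 ± 0.14, 0.0516), Kcnk6 (-0.57 ± 0.14, 0.0518) and Kcnj15, an inward rectifier (-1.15 ± 0.29, 0.0552). Kcnd2 and Kcnip2 measured -0.13 and 0.05 between transgenic TAC and wild-type TAC hearts, with intervals of -0.89 to 0.63 and -0.52 to 0.61.

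After sham surgery, 2 of the 68 tested members passed, 2.94%, against 1.44% of all genes, and both were lower in transgenic hearts, as were 0.663% of all genes, while 0.774% were higher. The arrays did not overlap for 13 lower (19.1%) and 4 higher members (5.88%), against 14.2% and 8.11% of all genes, 22.3% in either direction, and 17 (25.0%) had an unadjusted p under 0.05, against 17.5%. Kcnj2 had -3.06, -2.90 and -3.24 in transgenic sham hearts, against -2.42, -2.34 and -2.58 in wild-type sham hearts, a difference of -0.62 ± 0.12 (1.54-fold lower, adjusted p = 0.0416). Kcnv2 had -2.68, -2.99 and -3.01 in transgenic sham hearts, against -1.29, -1.02 and -1.20 in wild-type sham hearts, a difference of -1.72 ± 0.35 (3.30-fold lower, adjusted p = 0.0492). For both genes every transgenic sham array lay below every wild-type sham array. Neither gene was well above background on transgenic sham array 2. Without that array the differences were -0.70 and -1.67 and the adjusted p 0.0615 and 0.133, and the count was 0. On the slide that held transgenic sham array 2 beside wild-type sham arrays 1 and 2 the differences were -0.52 and -1.83, and with slide as a fixed block the adjusted p were 0.147 and 0.231. With normexp the differences were -0.38 ± 0.37 and -1.02 ± 0.33, and neither passed. The Kcnj2 call was lost without any array but wild-type TAC array 3 (adjusted p = 0.0547 to 0.167), and the Kcnv2 call without any of the 6 sham arrays, transgenic TAC array 3 or wild-type TAC array 1 (adjusted p = 0.0547 to 0.164). The count was 0 without transgenic sham array 3, transgenic TAC array 3, wild-type TAC array 1 or any wild-type sham array as well, and 1 without transgenic TAC array 1 or 2 or wild-type TAC array 2. Of all genes, 0.324% to 1.11% passed where the count was 0, and 1.17% to 1.33% where it was 1.

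Kcnd2 and Kcnip2 had transgenic minus wild-type differences of -1.30 ± 0.34 and -0.91 ± 0.25 after sham surgery. For both genes the transgenic sham arrays lay below the wild-type sham arrays, but the adjusted p were 0.0965 and 0.110. Kcnd3 of the same current went the other way without a call. It had 0.98, 0.81 and 0.82 in transgenic sham and 0.49, 0.22 and 0.59 in wild-type sham hearts, without overlap. Kcna4 averaged 0.76 and 1.10 in these groups, with overlap and no call. Kcng2 measured -0.61 ± 0.13 (adjusted p = 0.0579) without overlap, and passed without transgenic sham array 1 (-0.70, adjusted p = 0.0360). Kcnh2, lower after TAC in wild-type hearts, measured 0.04 with an interval of -0.32 to 0.40. Among the 17 members that were lower in wild-type TAC hearts, 16 measured below 0 between transgenic and wild-type sham hearts, from -1.72 to 0.04, and 15 above 0 between transgenic and wild-type TAC hearts, from -0.13 to 1.11. Those counts share their wild-type arrays with the test that chose the 17 and give no independent support.

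**Figure D4:**
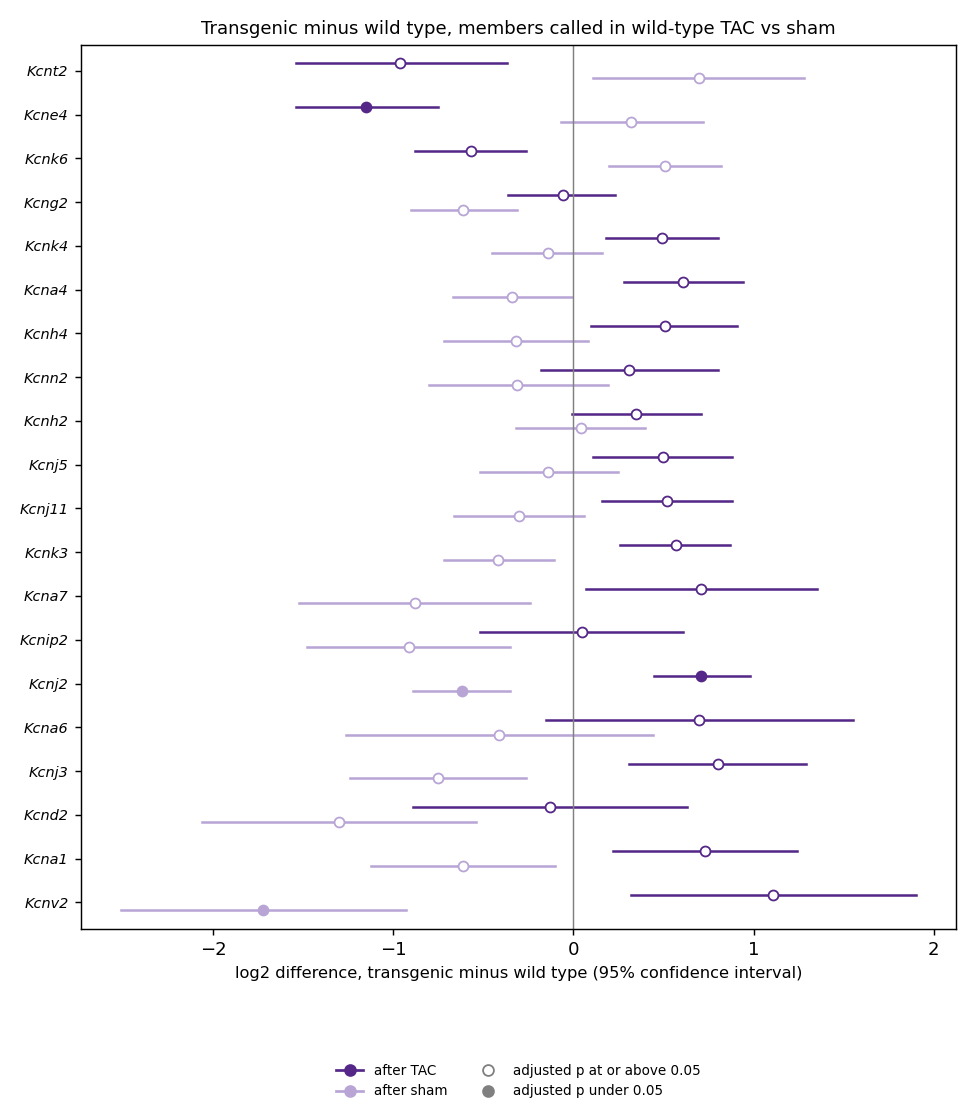
Log2 differences between transgenic and wild-type hearts (horizontal axis, with 95% confidence intervals from limma) for the 20 members that passed between wild-type TAC and sham, with the difference after TAC above that after sham surgery in each row. Filled points have an adjusted p under 0.05, which holds for Kcnj2 and Kcne4 after TAC and for Kcnj2 and Kcnv2 after sham surgery.

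Partner genes outside the Kcn symbols, which regulate or accompany these channels or move potassium themselves, were counted from a list of 32, of which 31 were tested. In wild-type TAC hearts 10 were lower and 1 higher, 35.5% of the 31 against 21.2% of all genes (12.5% lower and 8.7% higher), with a median log2 difference of -0.33 against -0.13 over all genes. The 6 with the smallest p were all lower, and with slide as a fixed block all 6 kept their direction but none passed (adjusted p = 0.0745 to 0.148). Tmem38a, the cation channel of the sarcoplasmic reticulum that balances the charge of calcium release, measured -0.69 ± 0.12 (adjusted p = 0.00414). Lrrc38, an auxiliary subunit of calcium-activated channels, measured -0.89 ± 0.16 (adjusted p = 0.00533) and Fxyd1, the regulator of the sodium pump in heart, -0.59 ± 0.12 (adjusted p = 0.00698). Abcc9 and Abcc8, the sulfonylurea receptors that complete the ATP-sensitive channel with Kcnj11 or Kcnj8, measured -0.70 ± 0.14 (adjusted p = 0.00785) and -0.60 ± 0.12 (adjusted p = 0.00814). Ccdc51, a subunit of the mitochondrial ATP-sensitive channel, measured -0.58 ± 0.13 (adjusted p = 0.0144). In transgenic hearts the TAC differences of Abcc9 and Abcc8 were -0.24 and -0.22, with adjusted p of 0.807 and 0.804. The interaction passed for 3 partner genes with a positive and 1 with a negative value, 12.9% of the 31 against 7.08% of all genes.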

How the data were processed

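RNA of left ventricle sections, labelled with Cy3, was measured on 12 arrays. Per the file headers, the authors deposited spot intensity values made with Feature Extraction 10.7.3.1, whose processed signal is background-subtracted and was not scaled across arrays. The deposited table of log2 values matched percentile-scaled, probe-centred processed signals. The submitters' processing notes name RMA, with no role.

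Of 43020 non-control spots, those marked as outliers were left out and the spots of a probe averaged. Levels are log2 signals less the 75th percentile of their array. RefSeq accessions gave 26424 of 39429 probes a symbol through a GRCm38.p6 gene table, while the headers name mm9, so that table gives gene names and order only, and no coordinates, for the array's probes. Probes well above background on at least 3 arrays were kept, and the brightest probe by its mean over the 12 arrays stood for a gene. The number of arrays limits the precision.

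A mean per group was fitted over all 12 arrays with limma 3.58.1 in R 4.3.3, with 8 residual and 1.79 prior degrees of freedom, two-sided tests and Benjamini-Hochberg adjustment over 25321 genes. The steps were tested on simulated data. The members, channel lists, partner list and marker lists were chosen with earlier results of these data known. A few members are not reported here by name. Values are given for the other genes of a cardiac channel list and, of the other members, for up to 10 in each direction among those that passed, per array or as group means. Kcnk9, Kcnj14, Kcnj15, Kcnip3, Kcnj1 and Kcnj4 were named after their values were seen. Alternatives covered normalization, background, filter, probe choice, variance, slide, replicate number, the deposited table and each array left out. Same-numbered arrays did not deviate together (correlations of -0.39 to 0.17), so replicate numbers were not taken as pairs. The arrays came from 5 slides, of which 2 held more than 1 group.

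The probe of Ppp3cb, the gene of which CnAb1 is a variant, had levels of 1.47, 1.38 and 1.43 in transgenic TAC, 1.40, 1.17 and 1.36 in transgenic sham, 1.30, 1.21 and 1.33 in wild-type TAC and 1.63, 1.56 and 1.57 in wild-type sham hearts. Which transcripts it reads is not given, so it does not check the transgene.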

Additional observations from a re-analysis of the deposited data

Results flagged for a closer look

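The TAC response differed between the genotypes, by the interaction test in limma, for 10 of the 68 tested members, against 7.08% of all genes. In each case the value is the response in transgenic hearts minus that in wild-type hearts on the log2 scale. Kcnj2 gave 1.33 (adjusted p = 0.0125), with responses of 0.11 in transgenic and -1.22 in wild-type hearts. Kcnv2 gave 2.83 (0.0193), with 0.46 and -2.37. Kcnj3 gave 1.55 (0.0253), with 0.08 and -1.47. Kcnk3 gave 0.98 (0.0246), with 0.07 and -0.91. Kcna4 gave 0.95 (0.0307), with 0.27 and -0.68. Kcna1 gave 1.35 (0.0386), with -0.23 and -1.58. Kcna7 gave 1.59 (0.0461), with 0.55 and -1.04, but 0.64 (0.524), with -0.59 and -1.23, by its second probe. Kcne4 gave -1.47 (0.0187), with -0.20 and 1.27. Kcnk6 gave -1.08 (0.0203), with -0.26 and 0.82. Kcnt2 gave -1.65 (0.0319), with -0.25 and 1.41. Each pair of responses is listed with the transgenic value before the wild-type value. Of the 10, Kcna1, Kcnj2, Kcnj3, Kcnv2, Kcne4 and Kcnt2 were not well above background on transgenic sham array 2, whose part in these values was not tested beyond leaving it out. Without that array 6 members and 3.44% of all genes passed. With all 12 arrays the interaction also passed for 4 of 8 cardiomyocyte and 5 of 7 fibroblast markers, given above with the other marker lists. The part of the markers in these values was not tested.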

How the results depend on the processing

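Calls depended on the setting more than directions did: no called member turned its sign in any alternative. The count for TAC in wild-type hearts, 20, fell to 7 with normexp background correction and to 2 with slide as a fixed block, lay between 15 and 23 without each array, and stayed within 1.5 times under the other alternatives. Of all genes, 21.2% passed in the reported fit, 5.91% with normexp and 2.07% with slide as a fixed block. Without each array 11.1% to 24.5% of them passed. Under normexp the median of all genes moved from -0.13 to 0.25, and the members' median was 0.25. The 7 that passed there were Kcna4, Kcnd2, Kcnip2, Kcnj11, Kcnj5, Kcnk3 and Kcnk6. For transgenic against wild type after TAC, 2 passed. The count was 0 with normexp, the compared groups alone and slide as a fixed block, 1 with the mean over a gene's probes, 4 with quantile normalization, 7 with a filter on all 12 arrays, 8 with a trended robust variance, 13 with array weights, and 0 to 8 without each array. Of all genes, 0.178%, 0.399%, 0.126%, 3.31%, 3.5%, 20.5%, 8.65% and 12.4% passed in the settings up to array weights, in that order. After sham surgery, where 2 passed, the count was 0 with quantile normalization, median scaling, normexp, no filter, array weights, the replicate block and slide as a fixed block, 1 with the mean over a gene's probes and the compared groups alone, 4 with a filter on all 12 arrays and with a trended robust variance, and 0 to 2 without each array. Of all genes, 0.158% to 0.881% passed in the named settings with a count of 0. The share was 1.21% and 0.138% in those with 1, and 9.1% and 3.76% in those with 4. The interaction count, 10, was 0 with normexp and slide as a fixed block, 4 with median scaling, no filter and the replicate block, 6 with quantile normalization, and 1 to 12 without each array. The share of all genes was 0% with normexp and slide as a fixed block. With median scaling, no filter, the replicate block and quantile normalization it was 2.74%, 1.47%, 2.76% and 3.56%. With quantile normalization the split of higher against lower calls was 3 to 1 between the genotypes after TAC and 5 to 1 for the interaction, against 1 to 1 and 7 to 3 in the reported fit. TAC in transgenic hearts gave 0 calls in every alternative. The replicate block gave 20, 0, 2, 0 and 4 calls for the 5 comparisons. Slide as a random block, whose estimated correlation was 0.235, gave 23, 0, 2, 2 and 10. Normexp started from the median signals of a spot and its background, and dim members such as Kcnj2, Kcnj3 and Kcna1 had smaller differences under it. The cause of these moves was not tested. Signal over background limits the 71 members that were not well above background on all 12 arrays.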

Other observations

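The 27 members that were too dim to test had a median log2 difference of -1.19 between transgenic TAC and transgenic sham hearts, with 27 of 27 below 0, and of 0.69 between transgenic and wild-type sham hearts. Without transgenic sham array 2, an alternative chosen after seeing the data, those medians were -0.10 and -0.52. Between wild-type TAC and wild-type sham hearts the median of the 27 was -0.33, with 21 below 0. That of the tested members was -0.30. The cause was not tested. Kcnj4, an inward rectifier, ranged from -1.93 to -0.41 in transgenic TAC, from -2.50 to 0.24 in transgenic sham, from -2.26 to -1.93 in wild-type TAC and from -2.09 to -1.85 in wild-type sham hearts, so that its spread lay in the transgenic groups. Kcnq1ot1, the non-coding transcript within the Kcnq1 locus, ranged from -6.48 to -3.77, from -5.33 to -2.48, from -3.59 to -2.94 and from -3.67 to -2.82 in the groups in that order.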
